A study of Mus musculus with 43 samples.

Results

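EKLF regions were examined at 9 genes that run the entry into and exit from mitosis: the kinases Cdk1, Plk1, Aurka, Aurkb and Bub1, the cyclins Ccna2 and Ccnb1, and Cdc20 and Fzr1, which activate the anaphase-promoting complex (APC/C). These are 9 of the 21523 protein-coding genes on the autosomes and X in a RefSeq gene table. The genes were chosen by name and function, with the EKLF region lists already known, and each was then assigned every called region centred between its ends or no more than 10 kb outside them. Counts of regions at these genes are therefore descriptions and were not tested.

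The regions came from chromatin immunoprecipitation (ChIP) of EKLF in dispersed fetal liver cells of mouse embryos at E13.5, labelled primary erythroid cells. The groups were wild-type embryos of the Nan strain (WT) and heterozygotes carrying Nan, an allele of Klf1 (Nan/+), described by the series design as biological replicates from littermates, with no treatment named. Klf1 encodes EKLF, a zinc-finger activator of red cell genes, and Nan alters an amino acid in a zinc finger. A Nan/+ embryo keeps 1 normal Klf1 allele, and 1 antibody was named for both genotypes, so the lists do not separate the normal from the altered protein. Each genotype had 3 ChIP libraries, which the authors combined into 1 list of 9181 regions in WT and 15564 in Nan/+. ChIP depth was 74140385 to 103170594 tags per library in WT and 72023512 to 100763687 in Nan/+. With 1 list per genotype there was no spread between replicates, so no difference below has a replicate check, and a region missing from a list may lie just under its calling threshold. In whole-tissue chromatin, fewer cells of a type and less binding per cell cannot be told apart. As a check of the tissue label, a region lay at 10 of 10 erythroid marker genes in both lists, against 3 and 2 of 10 hepatoblast markers and 1 and 1 of 10 macrophage markers in WT and Nan/+.

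In dividing cells, cyclin A and then cyclin B bind the kinase Cdk1 and drive the cell into mitosis, while Plk1 and the Aurora kinases build the spindle and attach chromosomes to it. Bub1 serves the spindle checkpoint, which holds back Cdc20 until all chromosomes are attached. Cdc20 and later Cdh1, the product of Fzr1, then direct the APC/C to mark cyclins and mitotic kinases for destruction. Erythroid precursors divide rapidly in the fetal liver and leave the cell cycle as they mature. Promoters of mitotic genes are known for CCAAT boxes, bound by NF-Y, and for the cell cycle homology region (CHR), which ties their transcription to the cell cycle.

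Start sites were examined first. RefSeq promoter sequences (GRCm38.p6, the assembly of mm10) were matched for 7 of the 9 genes. Those not matched were Aurkb and Ccna2. Of the 7 promoter windows, which run from 250 bases before to 50 after the start, a WT region overlapped 2, those of Fzr1 and Ccnb1, against 19.0% of 21045 windows of all protein-coding genes. A Nan/+ region overlapped 2 others, those of Cdk1 and Aurka, against 11.8% of all windows. No window of the 7 was overlapped in both lists, against 7.08% of all windows. The 4 promoters under a region are shown, with that of Plk1, which had no region, for comparison. Each sequence gives the 250 bases before the start on the strand of the gene, 5′ to 3′. Capitals mark matches on either strand to an EKLF word (CCACACCC, CCACGCCC, CCCCACCC or CCCCGCCC), to its relaxed form CCNCNCCC, to CCAAT and to the CHR (TTTGAA or TTTAAA).
Fzr1 (chr10:81378371-81378620, minus strand, WT region): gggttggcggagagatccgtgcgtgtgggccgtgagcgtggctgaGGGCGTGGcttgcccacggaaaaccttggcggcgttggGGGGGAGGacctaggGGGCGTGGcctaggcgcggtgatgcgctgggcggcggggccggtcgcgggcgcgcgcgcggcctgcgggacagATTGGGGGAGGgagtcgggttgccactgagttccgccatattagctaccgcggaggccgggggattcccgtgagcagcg
Ccnb1 (chr13:100786487-100786736, minus strand, WT region): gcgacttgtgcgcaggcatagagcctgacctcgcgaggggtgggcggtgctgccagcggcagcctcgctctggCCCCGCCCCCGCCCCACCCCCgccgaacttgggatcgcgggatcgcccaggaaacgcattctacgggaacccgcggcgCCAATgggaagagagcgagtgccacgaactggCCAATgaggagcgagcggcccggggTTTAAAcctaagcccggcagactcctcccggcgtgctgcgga
Cdk1 (chr10:69352913-69353162, minus strand, Nan/+ region): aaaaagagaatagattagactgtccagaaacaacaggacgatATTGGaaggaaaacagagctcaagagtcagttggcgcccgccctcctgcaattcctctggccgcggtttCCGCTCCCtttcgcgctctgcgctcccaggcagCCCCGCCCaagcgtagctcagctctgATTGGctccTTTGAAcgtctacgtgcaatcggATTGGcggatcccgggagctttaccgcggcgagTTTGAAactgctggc
Aurka (chr2:172370571-172370820, minus strand, Nan/+ region): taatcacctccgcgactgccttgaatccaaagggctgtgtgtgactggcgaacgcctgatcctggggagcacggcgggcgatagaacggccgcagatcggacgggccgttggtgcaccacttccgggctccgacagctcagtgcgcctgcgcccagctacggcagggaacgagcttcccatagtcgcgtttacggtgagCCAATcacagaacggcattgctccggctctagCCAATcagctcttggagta
Plk1 (chr7:122159185-122159434, plus strand, no region): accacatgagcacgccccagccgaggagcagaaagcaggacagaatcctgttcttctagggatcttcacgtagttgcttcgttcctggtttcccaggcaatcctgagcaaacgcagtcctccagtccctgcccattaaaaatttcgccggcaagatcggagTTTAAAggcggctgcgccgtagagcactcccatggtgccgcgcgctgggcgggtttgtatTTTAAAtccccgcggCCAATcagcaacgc

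In the Fzr1 promoter, CCACGCCC was read on the opposite strand as GGGCGTGG at -205 to -198 and again at -152 to -145, counting back from the start. The WT region there ran from -626 to +65 and held both. In Ccnb1, 3 overlapping EKLF words (CCCCGCCC at -177 and at -171, CCCCACCC at -166) formed a C-rich run that ended at -159. The WT region there, at -187 to +11, took in all 3 words, both CCAAT boxes and the CHR match at -42. In Cdk1, the Nan/+ region at -205 to +115 held 1 EKLF word, CCCCGCCC at -106, with 2 of its 3 CCAAT boxes and both CHR matches, at -71 and -15. The Aurka window held no EKLF word and no CCNCNCCC. The Nan/+ region over its start, at -69 to +150, held both CCAAT boxes and both CHR matches, which lay after the start at +18 and +33.

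EKLF words and cell cycle elements were then counted over the 7 promoters. An EKLF word was found in 4 (Fzr1, Ccnb1, Cdk1 and Bub1), against 36.5% of all promoter windows, and the relaxed form in those 4 and in Cdc20, against 57.1%. The word CCCCGCCC, which 23.8% of all windows held, was in 3 of the 7, and CCACACCC, held by 3.64%, in none. A CCAAT box was present in all 7, against 38.5%, and 5 had at least 2, against 12.9%. A CHR match was present in 5, all but Fzr1 and Bub1, against 24.5%. The GATA words (AGATAA or AGATAG or TGATAA or TGATAG) matched in none of the 7, against 25.8%. GC content of the 250 bases ranged from 53.6% to 72.4% in the 7, beside a median of 55.6% over all windows. Promoters with a WT region anywhere in the genome were richer in GC, with a median of 63.2%, and 57.1% of them held an EKLF word. Those with a Nan/+ region were much the same, with a median of 63.6% and an EKLF word in 57.9%. A match describes the letters in these windows and does not show that a factor binds there.

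**Figure D1:**
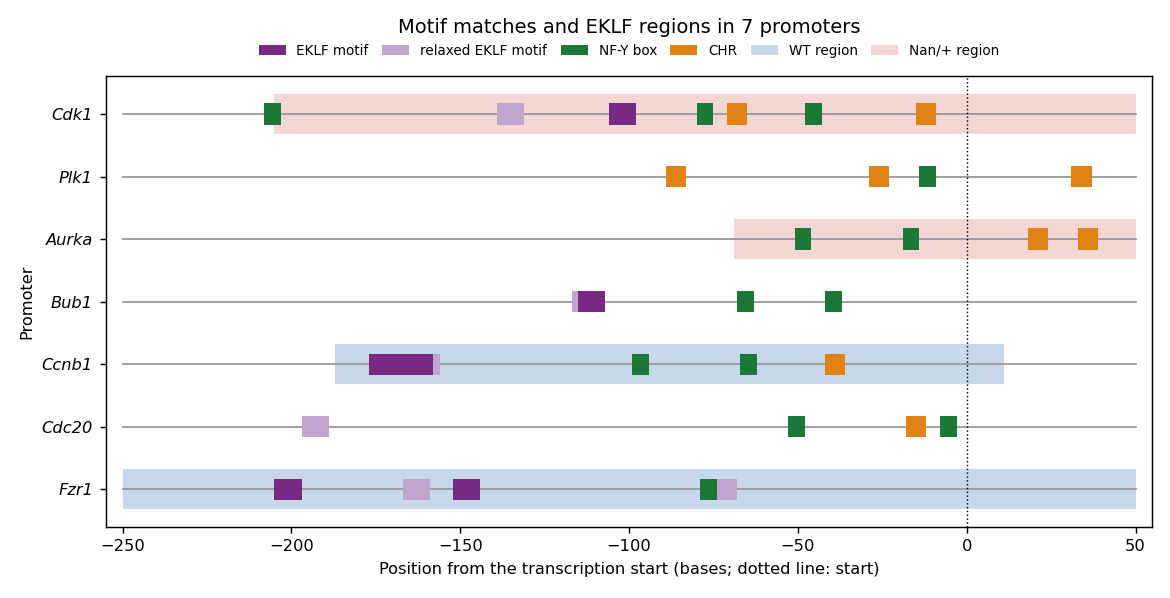
Positions of motif matches (coloured blocks) and of EKLF regions (shading, WT or Nan/+) in the promoters of 7 genes, in bases from the transcription start, from 250 before it to 50 after it. CCAAT is drawn as the NF-Y box and CCNCNCCC as the relaxed EKLF motif. WT shading lies over Fzr1 and Ccnb1 and Nan/+ shading over Cdk1 and Aurka, while Plk1, Bub1 and Cdc20 have none.

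Over gene bodies and 10 kb flanks, 5 of the 9 genes had a WT region (Aurka, Ccna2, Ccnb1, Cdc20 and Fzr1), against 33.5% of all protein-coding genes, and 7 had a Nan/+ region (these 5 with Cdk1 and Aurkb), against 37.5%. Among the 9946 genes as long as these, between 4.44 and 31.7 kb, 36.1% had a WT region and 36.1% a Nan/+ region. Cdk1 and Aurkb had regions in Nan/+ alone, as did 14.1% of all genes. No member had regions in WT alone, against 10.1% of all genes. Plk1 and Bub1 had none in either list, which is the commonest state over all genes. Of the 21523 genes, 7212 had a WT region, a further 3033 had Nan/+ regions alone, and the rest had none. In all, 18 WT and 14 Nan/+ regions were counted. Only 2 of the 18 WT regions overlapped a Nan/+ region by at least 1 bp, 1 at Aurka and 1 at Ccna2, against 24.5% of the whole WT list. In the Nan/+ list 2 of 14 overlapped a WT region, against 14.7% of the whole list. So 2 of the 9 genes had a region that overlapped the other list, against 13.3% of all genes.

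**Figure D2:**
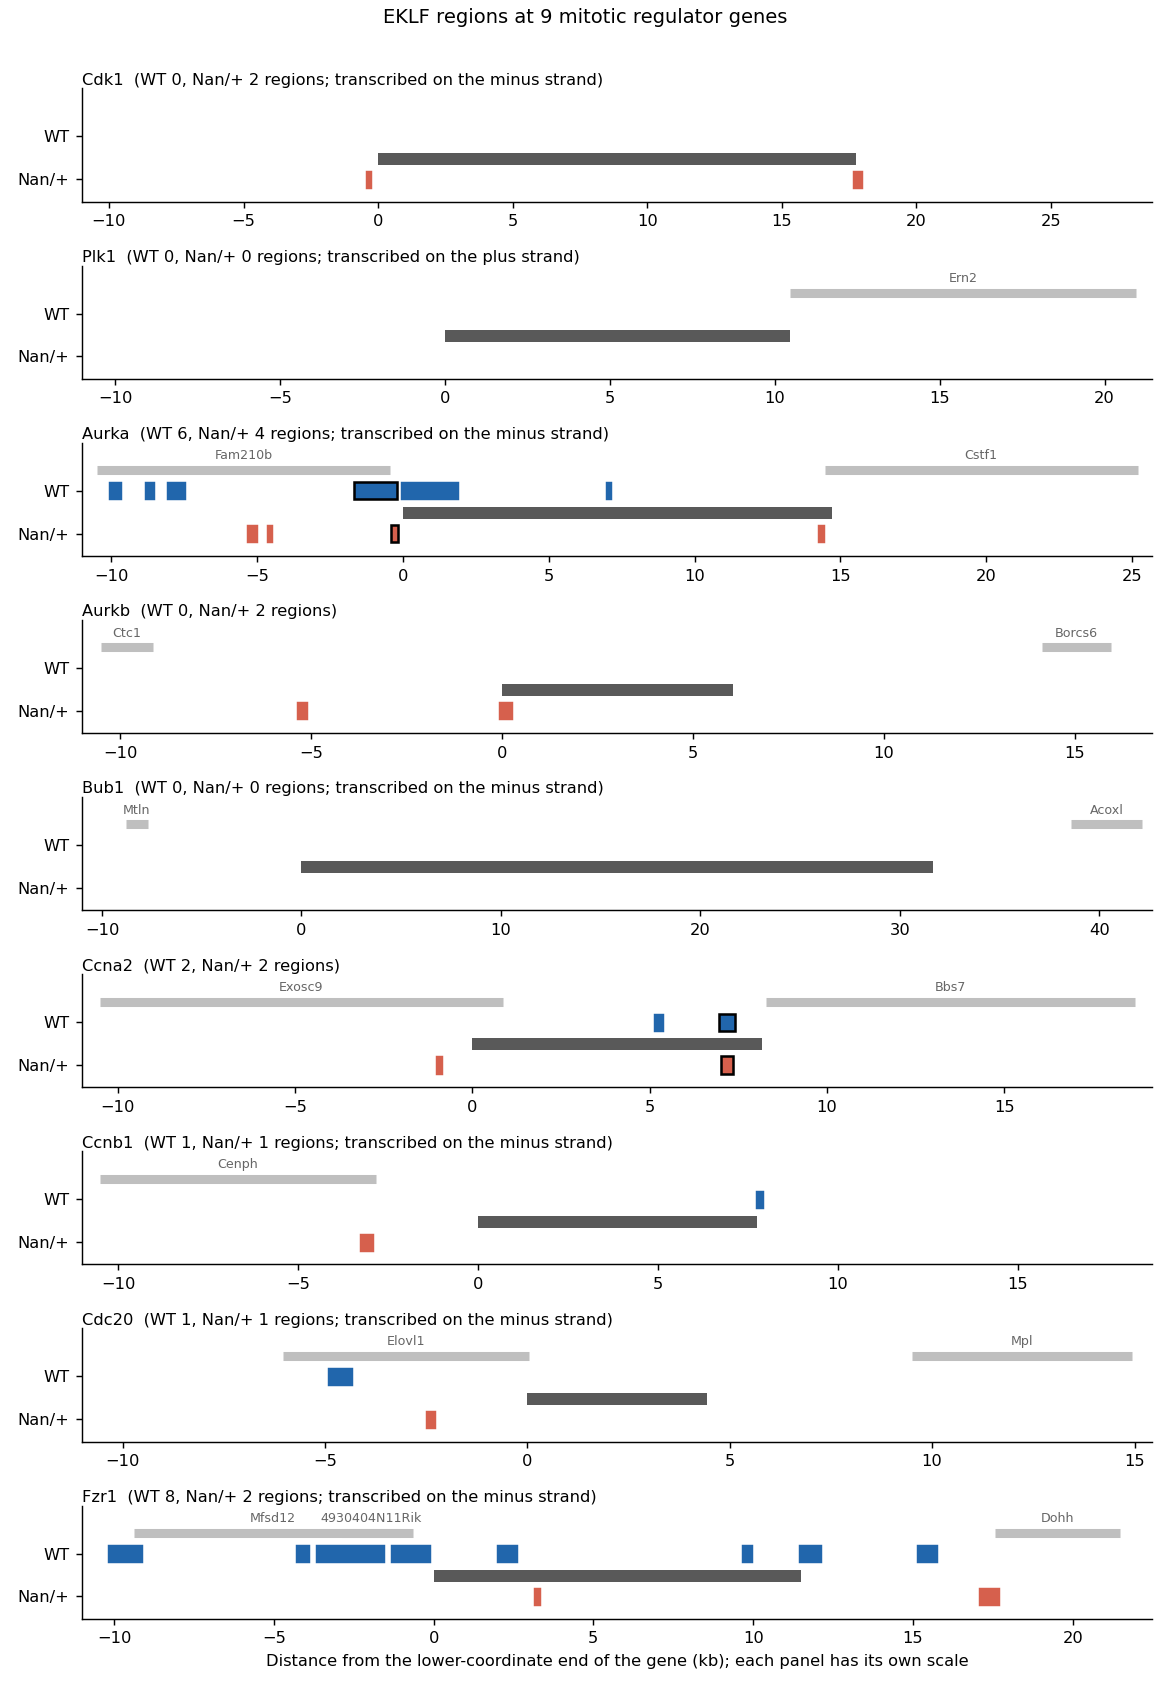
Called EKLF regions along each of the 9 genes (dark bar), WT above and Nan/+ below it, as distance in kb from the lower-coordinate end of the gene. Light bars are neighbouring protein-coding genes, and a black outline marks regions that overlap between the lists. Aurka and Fzr1 carry rows of WT regions that run into Fam210b and Mfsd12, whereas Cdk1 and Aurkb have Nan/+ regions alone and Plk1 and Bub1 have none.

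Cdk1, the kinase at the centre of mitotic entry, lies on chromosome 10 at 69335146 to 69352912. Its Nan/+ regions marked both ends of the gene. The region over the start, at 69352798 to 69353117, was 320 bp wide, wider than 82.7% of the Nan/+ list. The other, at 69334703 to 69334878, centred 0.356 kb past the far end of the gene, had the smallest width in that list, 176 bp, which 54.5% of all Nan/+ regions share. The nearest WT region was 557 kb from the gene. No other protein-coding gene lay within 10 kb of either region, so that no neighbour shares them.

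Aurora kinase genes differed from each other. Aurkb, which encodes the kinase of the chromosomal passenger complex (chromosome 11, 69045624 to 69051664), had 2 Nan/+ regions and no WT region. A 355 bp region at 69045541 to 69045895 spanned the lower-coordinate end of the gene and was wider than 86.0% of the Nan/+ list. The other, 270 bp wide at 69040245 to 69040514, centred 5.24 kb outside that end. Both also lay within 10 kb of Ctc1, a telomere maintenance gene. The nearest WT region was 11.4 kb from the gene, just beyond the 10 kb limit.

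Aurka, which encodes the centrosome and spindle kinase Aurora A (chromosome 2, 172356190 to 172370886), had 6 WT and 4 Nan/+ regions. A count of 6 or more WT regions was reached by 0.846% of all genes. Of the 6 WT regions 5 lay at or beyond the 3′ end of the gene, next to Fam210b, which runs towards Aurka and ends 441 bp from it. Fam210b encodes a mitochondrial protein known for a part in iron import and heme synthesis in maturing red cells. The widest WT region, 1951 bp at 172356139 to 172358089, crossed the 3′ end of Aurka and was wider than 99.8% of the WT list. The next, 1494 bp at 172354506 to 172355999, spanned the 3′ end of Fam210b and overlapped a 221 bp Nan/+ region (172355798 to 172356018) by 202 bp. A further 3 WT regions, 322 to 621 bp wide, lay within Fam210b, and the last, 195 bp at 172363146 to 172363340, lay inside Aurka.

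In Nan/+, by contrast, the start of Aurka itself was covered. The 219 bp Nan/+ region there, 172370421 to 172370639, lay 7.29 kb from the nearest WT centre. This region was wider than only 54.5% of the Nan/+ list, the share that has the smallest width of 176 bp. It ended just short of the first base of Cstf1 at 172370645, an mRNA cleavage factor gene that overlaps the annotated upstream end of Aurka and runs the other way, so the region can belong to either promoter. The other 2 Nan/+ regions, 329 and 176 bp wide, lay inside Fam210b, 2.61 and 3.22 kb from the nearest WT centre. Of the 6 WT regions at Aurka 1 was nearer to the start of Aurka than to any other listed start, and of the 4 Nan/+ regions also 1. The others were nearer to that of Fam210b.

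Plk1, a kinase of mitotic entry and spindle assembly (chromosome 7, 122159435 to 122169884), had no region. The nearest lay 92.2 kb away in WT and 63.4 kb in Nan/+. For Bub1, the spindle checkpoint kinase (chromosome 2, 127800197 to 127831859), the nearest lay 296 kb away in WT and 39.9 kb in Nan/+. Bub1 was the longest of the 9 genes at 31.7 kb, so that its window was the largest.

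Among the cyclins, Ccna2 held the region in which the lists came closest. Ccna2 encodes cyclin A2, the partner of Cdk1 and Cdk2 in S phase and early mitosis (chromosome 3, 36564865 to 36573038). A 453 bp WT region at 36571831 to 36572283 contained a 363 bp Nan/+ region at 36571863 to 36572225 whole, and their centres were 0.013 kb apart. Both lay inside the gene, the WT centre 0.981 kb from its higher-coordinate end. A second WT region, 264 bp at 36569979 to 36570242, was also inside the gene, and a second Nan/+ region of the smallest width lay 0.942 kb outside the opposite end, within Exosc9, a subunit gene of the RNA exosome. All 4 regions also lay within 10 kb of Exosc9 and of Bbs7, a ciliary BBSome gene. The 3′ end of Bbs7 lies 104 bp beyond the higher-coordinate end of Ccna2.

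Ccnb1, which encodes cyclin B1 (chromosome 13, 100778739 to 100786486), had 1 region in each list at opposite ends. The WT region over the start, at 100786476 to 100786673, was 198 bp wide and wider than only 11.1% of the WT list. It was the only WT region of the 18 with no other protein-coding gene within 10 kb. The Nan/+ region, 376 bp at 100775453 to 100775828, lay 3.10 kb beyond the 3′ end. There it lay inside Cenph, a kinetochore protein gene, 0.259 kb from its start. The 2 centres were 10.9 kb apart.

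Of the APC/C activators, Fzr1 had the most WT regions of the 9 genes. Fzr1 (chromosome 10, 81366879 to 81378370) had 8 WT and 2 Nan/+ regions with no overlap between them. As many WT regions as this were found at 0.339% of all genes. Across the start of Fzr1 lay a 691 bp WT region (81378306 to 81378996), wider than 84.0% of the WT list. Inside the gene there were WT regions of 614 bp and 308 bp, and upstream 1 of 611 bp at 3.94 kb. The other 4 WT regions lay beyond the 3′ end, at or in Mfsd12, a lysosomal transporter gene that runs towards Fzr1. They included the widest WT region at any of the 9 genes, 2119 bp at 81363195 to 81365313, and those of 1225 bp (81365536 to 81366760) and 1086 bp (81356684 to 81357769, centred 0.265 kb from the start of Mfsd12). The RefSeq start nearest to each of these 4 was that of Mfsd12. The widest was also centred inside 4930404N11Rik, and the 1086 bp region lay within 10 kb of Hmg20b, a chromatin protein gene. Of the 2 Nan/+ regions, the 176 bp region at 81370023 to 81370198 lay inside Fzr1, 0.940 kb from a WT centre. The other, 605 bp at 81383956 to 81384560, was the widest Nan/+ region of the 14. It lay over the start of the neighbouring gene Dohh, an enzyme gene of hypusine synthesis, 1.94 kb from the nearest WT centre.

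Cdc20 (chromosome 4, 118432901 to 118437343), the shortest of the 9 at 4.44 kb, had 1 region in each list. The WT region (584 bp, 118427984 to 118428567) and the Nan/+ region (247 bp, 118430386 to 118430632) both lay downstream, inside Elovl1, a fatty acid elongase gene that overlaps the end of Cdc20. Their centres were 2.23 kb apart. The nearest listed start to each centre was a start of Elovl1, at 0.18 kb in WT and 0.808 kb in Nan/+. The start of Cdc20 had no region in either list.

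Read over all 9 genes, much of the count lay in neighbours. Of the 18 WT regions 6 were centred inside a member and 8 inside another protein-coding gene, and of the 14 Nan/+ regions 4 and 5. Among the 7 genes with a listed start, 5 of 16 WT regions and 4 of 10 Nan/+ regions had the member's own start as the nearest. At the 10 kb limit, the farthest regions counted were WT regions 9.87 kb from Aurka, inside Fam210b, and 9.65 kb from Fzr1, near the start of Mfsd12. The nearest left out were a Nan/+ region 10.7 kb from Aurka and the WT region 11.4 kb from Aurkb. With the gene body alone, which was chosen after seeing the data, 3 genes had a WT region and 4 a Nan/+ region, beside 18.1% and 23.5% of all genes by that rule.

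Widths were read within each list only, because the calling settings differed. The WT regions had a median of 598 bp, against 396 bp for the whole list, and 13 of the 18 exceeded the list median. The 5 that did not lay at Aurka, Ccna2, Ccnb1 and Fzr1. The Nan/+ regions had a median of 259 bp, against 176 bp for the list, and 4 of the 14 had that smallest width, 1 each at Cdk1, Aurka, Ccna2 and Fzr1. Width is no measure of binding strength, which the lists do not give.

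**Figure D3:**
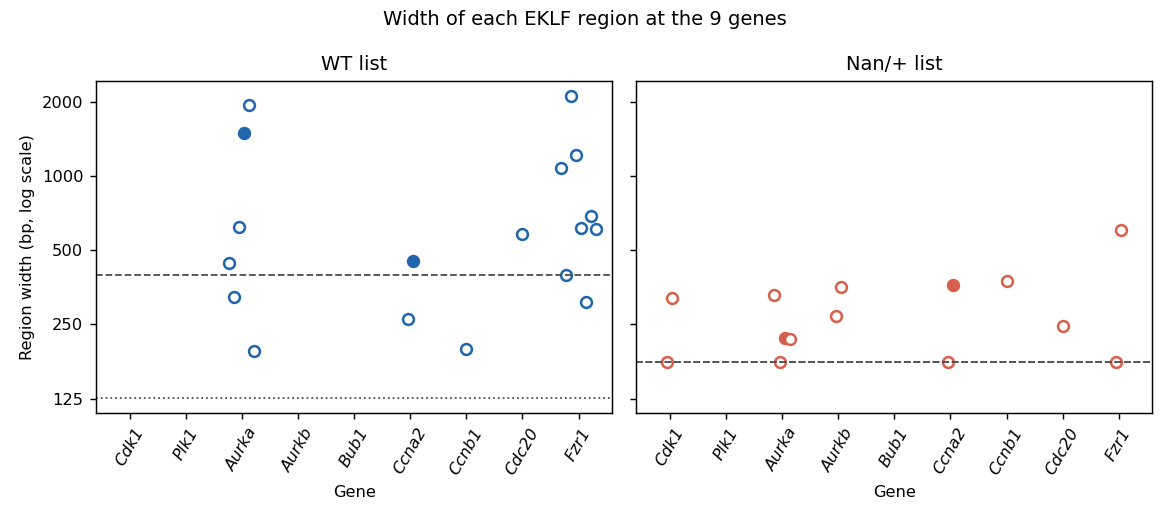
Width in bp (log scale) of each WT region (left) and each Nan/+ region (right) at the 9 genes. Filled points overlap the other list, the dashed line is the median of the whole list (396 bp in WT, 176 bp in Nan/+) and the dotted line its smallest width. The widest WT points, at 2119 and 1951 bp, belong to Fzr1 and Aurka.

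Other genes of mitosis were described from 7 groups, 82 genes in all, chosen by function. A WT region lay at 51 of them and a Nan/+ region at 46, or 62.2% and 56.1%, beside the 33.5% and 37.5% of all genes given above. Regions in both lists were found at 28 of the 82. Another 23 had them in WT alone and 18 in Nan/+ alone, beside 10.1% and 14.1% of all genes. Over all 21523 genes, 7212 had a WT region, and all but 2164 of these also had a Nan/+ region. At 14 of the 82 a WT region overlapped a Nan/+ region, beside 13.3% of all genes. The median was 1 region per gene in each list, against 0 over all genes. Of 84 promoter windows matched for 69 of these genes, a WT region overlapped 35, or 41.7%, and a Nan/+ region 15, or 17.9%, beside 19.0% and 11.8% of all windows. CCAAT was in 45.2% of the 84 windows and a CHR match in 36.9%, beside 38.5% and 24.5% of all windows. An EKLF word was in 40.5% and a GATA word in 17.9%, beside 36.5% and 25.8%. The smallest width of its list was shared by 54.5% of all Nan/+ regions and by 3.29% of all WT regions. Without regions of that width, 51 of the 82 genes still had a WT region and 34 had a Nan/+ region. These groups were not tested. Of the 71 WT regions at the 82 genes 39 were also assigned to another protein-coding gene, and of the 91 Nan/+ regions 37.

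The balance between the lists varied among the groups, and that variation was not tested. Among regulators of cyclin B and Cdk1, 9 of 13 had a WT region and 5 a Nan/+ region. Cks1b, a small Cdk-binding subunit gene, had 3 WT and 0 Nan/+ regions, and Ccnb2, the cyclin B2 gene, had 2 and 0. Wee1, the kinase that holds Cdk1 inactive, had 1 and 0, while Ccnf had 3 and 3. Cks2 had 1 and 2, and Ensa had 2 and 3, with both of its WT regions overlapping Nan/+ ones. Chromosomal passenger and centromere genes stood at 9 and 4 of 12. Incenp, the scaffold of the Aurora B complex, had 3 and 0, and Cenpa, the centromeric histone gene, 1 and 0, whereas Cdca8, which encodes borealin of the Aurora B complex, had 0 and 2.

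Spindle checkpoint genes stood at 8 and 5 of 11. Mad1l1, a gene of 313 kb, had 1 WT region and 21 Nan/+ regions, and Mad2l1, whose product binds and holds Cdc20, had 1 and 0. Zwilch had 0 and 2, Trip13 had 1 and 0, and Ttk had 1 and 1. Other mitotic kinases and activators stood at 6 and 10 of 15. Tpx2, the spindle activator of Aurora A, had 0 and 3, Lats1 had 0 and 2, and Nek6 had 4 and 3. Pbk had 1 and 0, and Nek2 had 1 and 1.

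The APC/C subunits stood at 9 of 14 in each list. Anapc15 had 2 and 2 regions, with both WT regions overlapping Nan/+ ones, Anapc2 had 1 and 0, and Cdc27 had 0 and 4. Of its partners, inhibitors and substrates, 3 and 5 of 8 had a region. Ube2c, the ubiquitin-conjugating enzyme gene of the APC/C, had 3 and 1. Fbxo5, which encodes the APC/C inhibitor Emi1, had 1 and 0, and Espl1, the separase gene, had 0 and 2. The Espl1 regions were of the smallest width and together covered 352 bp. Of 9 regulators of transcription in G2 and mitosis, 7 and 8 had a region. Nfyc, a subunit gene of the CCAAT-binding factor, had 2 and 5, Nfya had 1 and 1 that overlapped, and Lin54, which encodes the CHR-binding subunit of the DREAM complex, had 3 and 2.

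**Figure D4:**
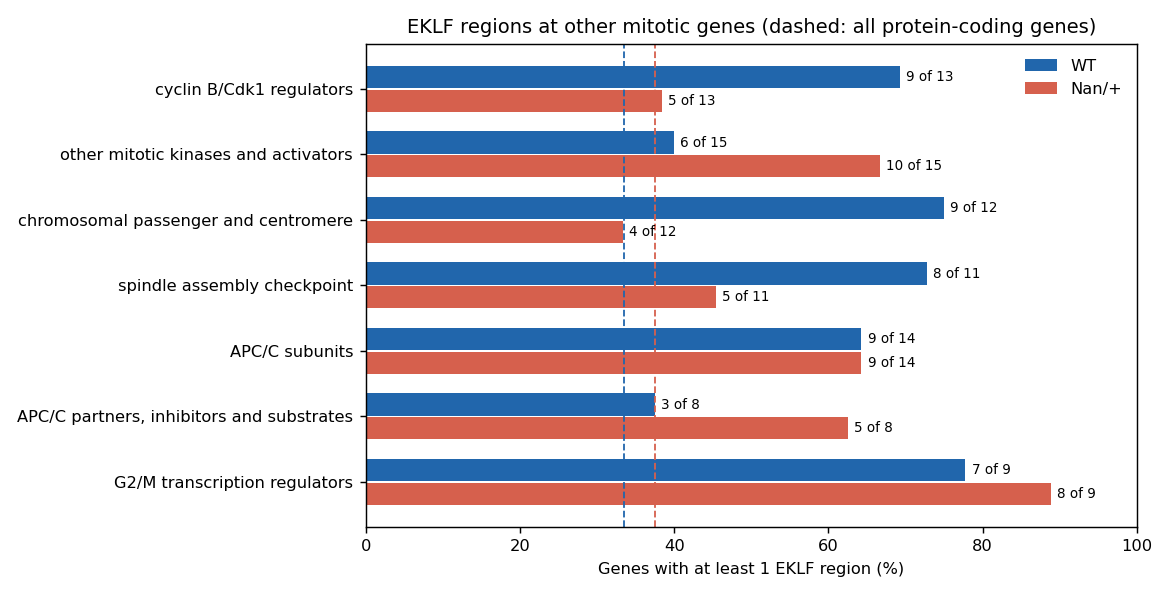
Share of genes (%) with at least 1 EKLF region in the WT and Nan/+ lists, for 7 groups of other mitotic genes, with counts beside the bars. Dashed lines give the shares over all protein-coding genes, 33.5% in WT and 37.5% in Nan/+. The WT bar is the longer in the cyclin B and Cdk1, centromere and checkpoint groups, and the Nan/+ bar in the groups of other kinases, APC/C partners and transcription regulators.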

How the data were processed

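EKLF occupancy was analysed from 1 list of regions per genotype, each made by the authors from 3 ChIP libraries. Per the file headers, peaks were called with HOMER on mm10 at a q of 0.01 and a fold of 4 against input, where 2 distinct inputs filled 3 places. A DESeq2 step inside HOMER kept regions at an FDR of 0.01 and a log2 fold change of 2, per the file headers. By the same headers, the WT list was called with peaks of 125 bp at least 250 bp apart. The Nan/+ list was called with 175 and 300 bp, which can change widths and region counts. Both lists carry 125 and 250 in their names, which for Nan/+ differs from its header. The smallest width was 126 bp in the WT list and 176 bp in the Nan/+ list. The score column deposited by the authors is 1 in every row and was not used. Other tools named in the submitters' processing notes are Bowtie2 2.1, SAMtools 1.1, bcl2fastq 2.17 and deepTools 3.5.

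Positions are printed counted from 1. Of 21900 protein-coding genes in the RefSeq table (GRCm38.p6), 108 on alternate loci and 269 on other sequences were left out. Interval code (Python 3.11.15, pandas 2.3.3, numpy 2.4.6) was tested on simulated data. The 10 kb flank, the overlap rule and the width filter were varied. Motifs were searched on both strands of 300-base promoter windows. The members and gene groups were chosen with earlier results of these data known. All 9 members are named, and of each other group up to 3 genes with most regions and up to 3 with regions in 1 list alone, of which some are printed. Most neighbours that share a region are named. No test was run. CBP, H3K27ac, polymerase, ATAC and input samples were not analysed here on their own.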

Additional observations from a re-analysis of the deposited data

How the results depend on the processing

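Of 60 alternative counts over the members and the other mitotic genes, 45 stayed within 1.5 times the reported count and 15 moved, 8 of them with the gene body alone. With a reciprocal overlap of 50%, or with centres within 250 bp, 1 WT region, 1 Nan/+ region and 1 gene were shared instead of 2 each, that of Ccna2. With the gene body alone, chosen after seeing the data, the members had 6 WT and 4 Nan/+ regions, 3 genes had a WT region and 4 a Nan/+ region, 1 WT and 1 Nan/+ region at 1 gene were shared, and 29 of the other mitotic genes had a WT region. With the widest 50% of each list, 32 of those genes had a WT region; the Nan/+ list was kept whole, because its middle width is the smallest, 176 bp. Of 108 alternative counts at single genes 22 moved. With the gene body alone Cdk1, Ccnb1 and Cdc20 had 0 regions in either list, although the regions over the starts of Cdk1 and Ccnb1 reach into the gene. The WT region of Ccnb1 was lost (0) with the widest 50%. Gene ends within 5 kb left 3 WT regions at Aurka instead of 6. Within 25 kb, Aurkb had 2 WT regions. No paired analysis was possible because the replicates of a genotype enter a single list, and for that reason no replicate could be left out. The lists hold no tag counts, so depth at a region is unknown.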
